A study of Mus musculus with 14 samples.

Results

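The growth factor receptor genes that hepatocytes are known for, 8 in all, were followed through normal liver and spontaneous liver tumours of the mouse. They were Egfr, Erbb2 and Erbb3 of the EGF receptor family, Met, Fgfr4 with its partner Klb, Insr and Igf1r, taken by name, with all RefSeq transcript rows of a gene summed. All 8 were measured, among 21431 named genes. The 14 samples are tissue of male mice of the inbred, liver-tumour-prone strain C3HeB/FeJ, aged 18 months in the labels. They comprised 4 normal livers (Normal), 6 tumours labelled as growing (Grow) and 4 labelled as regressing (Regress). The labels do not say how growth or regression was scored.

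Mice were checked for tumours at 10 months of age and then given intraperitoneal injections on 5 days of every 28, for 6 cycles. All 4 Normal samples carry phosphate citrate buffer as their treatment. In the Grow group, samples 1 and 5 had DMSO, samples 2, 3 and 4 had SAHA plus TMZ, and sample 6 had SAHA. In the Regress group, samples 1 and 3 had TMZ, sample 2 had buffer and sample 4 had DMSO. SAHA (suberoylanilide hydroxamic acid) inhibits histone deacetylases and was given at 100 mg/kg, or 85 mg/kg in the combination. TMZ (temozolomide) alkylates DNA and was given at 31 mg/kg, or 22 mg/kg in the combination. Because 1 tumour alone had the buffer of the normal livers, tumour and treatment cannot be fully told apart. Tumours arose without any introduced gene, and the tissue was sequenced in bulk, so each library holds the RNA of every cell type in the piece.

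Receptor tyrosine kinases are membrane proteins that bind a growth factor outside the cell, pair up and phosphorylate each other and their adaptor proteins inside it. In liver, EGFR and MET are the main receptors for the signals that drive hepatocytes to divide after partial hepatectomy. FGFR4 with the co-receptor beta-Klotho (Klb), which has no kinase of its own, receives the intestinal hormone FGF15 and represses bile acid synthesis. INSR controls glucose and lipid metabolism, while the related IGF1R is known to be scarce in adult hepatocytes, the main source of circulating IGF1.

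Library totals ran from 4.71 to 13.39 M (mega) estimated counts. Levels are given as CPM, in which counts are scaled to a common library size after TMM normalization. A difference was called where the Benjamini-Hochberg adjusted p of edgeR's quasi-likelihood test over 12300 features was under 0.05. One sample code is used for both Normal 4 and Regress 2. Grow 3 and Grow 4 differed by less than any other pair within a group, with a median chi-square per gene of 0.88 against 2.09 to 26.3. Some libraries were nearest to a library of another group on that measure. Regress 1 was nearest to Normal 2 (2.73), and both Regress 4 (3.11) and Normal 3 (3.20) to Grow 2. Regress 1 was 4.89 to 26.3 from the other Regress tumours, and Regress 4 was 18.1 to 26.3 from them. The labels do not say that the samples came from separate mice, so p-values reflect only how far these samples scatter, which may be partly technical. Libraries also differed in how level moved with transcript length. The length slope of a library is the slope of its deviation in log2 CPM from the 14-library mean, per unit of log2 transcript length. It was -0.13, -0.26, 0.45 and 0.02 in Normal 1 to 4. It ran from -0.14 to 0.42 in Grow and was -0.36, -0.39, -0.48 and 0.39 in Regress 1 to 4. Most of the receptor transcripts are long, so the slope is given beside the results it moves with.

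Egfr is the only one of the 8 genes with more than 1 row in the table. Its long transcript (10208 bases, 28 exons, 1210 codons in GENCODE M21) encodes the membrane receptor. A short one (2943 bases, 16 exons, 655 codons) runs past the end of exon 16 and stops there, so that it holds the ligand-binding part without the transmembrane segment or the kinase. The sequences around the point where they part are shown because the Egfr counts below are split on this difference. Both lie on chromosome 11 of GRCm38, in coding sequence, 5′ to 3′ on the plus strand. Lower case is the shared end of exon 16, 16887141 to 16887185. Capitals are the 43 bases that follow in each transcript, from 16887186 to 16887228 in the short one, ending with its stop codon, and from 16889913 to 16889955 in exon 17 of the long one.
Egfr short: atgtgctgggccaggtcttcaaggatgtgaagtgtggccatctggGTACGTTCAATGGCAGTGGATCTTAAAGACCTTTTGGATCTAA
Egfr long: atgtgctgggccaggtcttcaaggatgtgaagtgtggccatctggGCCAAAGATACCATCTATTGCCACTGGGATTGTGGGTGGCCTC

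Egfr, the receptor for EGF, TGF-alpha and related ligands, had the most negative all-tumour difference of the 7 receptors tested. Its levels in Normal 1 to 4 were 188, 86.7, 303 and 453 CPM. In Grow the lowest, median and highest levels were 72.4, 86.3 and 162 CPM. In Regress 1 to 4 the levels were 119, 73.0, 71.6 and 170 CPM. Normal 1, 3 and 4 were above all 10 tumours, Normal 2 lay within the tumour range, and 5 tumours were below every normal liver. The group means were 258 ± 158 CPM in Normal (SD, n = 4), 100.0 ± 35.2 in Grow (n = 6) and 108 ± 46.6 in Regress (n = 4).

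Against normal liver, the Egfr log2 fold change was -1.31 ± 0.36 (SE, 95% interval -2.09 to -0.53) for all tumours, -1.37 ± 0.41 for Grow and -1.25 ± 0.46 for Regress. The edgeR adjusted p was 0.0697, 0.0919 and 0.198 in that order, so no comparison passed. These comparisons share the 4 normal livers, and the all-tumour value averages the effects in Grow and in Regress. With the length trend of each library removed, Egfr passed in all tumours (-1.21 ± 0.28, edgeR adjusted p = 0.0267) and in Grow (-1.52 ± 0.31, adjusted p = 0.0184), not in Regress, where the fit called 1.44% of features. That fit called 6.09% of 11421 features in all tumours and 4.92% in Grow. Both Egfr calls were then lost without Normal 1, without Normal 3 or without Normal 4, and each held in 11 of 14 fits with 1 library left out (log2 fold change -1.46 to -0.77 in all tumours, -1.77 to -1.07 in Grow). DESeq2, without any length term, gave adjusted p = 0.0163 in all tumours, where it called 8.58% of features, and 0.0195 in Grow, where it called 8.24%. Regress against Grow gave 0.12 ± 0.41 (95% interval -0.77 to 1.00) in the edgeR fit as run. With the length trend removed, mean log2 CPM of Egfr was 7.75 in Normal, 6.37 in Grow and 7.00 in Regress. On that scale Regress lay nearer to Normal than Grow did.

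The long Egfr transcript was at 88, 76.5, 213 and 335 CPM in Normal 1 to 4, from 50.8 to 141 CPM in Grow and from 34.8 to 147 CPM in Regress. The short one was at 99.7, 10.1, 89.7 and 118 CPM in Normal 1 to 4, from 14.3 to 45.4 CPM in Grow and from 22.6 to 39.4 CPM in Regress. Normal 2 was thus the exception for the short transcript, which in the other 3 normal livers exceeded all 10 tumours. Its mean was 79.4 ± 47.7 CPM in Normal, 26.2 ± 11.8 in Grow and 31.5 ± 7.88 in Regress. It took 11.7% to 53.1% of Egfr counts in Normal, 13% to 39.4% in Grow and 13.3% to 51.3% in Regress, so shares overlapped throughout. The split is an estimate made from reads that the shared exons cannot assign, and no test of it was run.

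**Figure D1:**
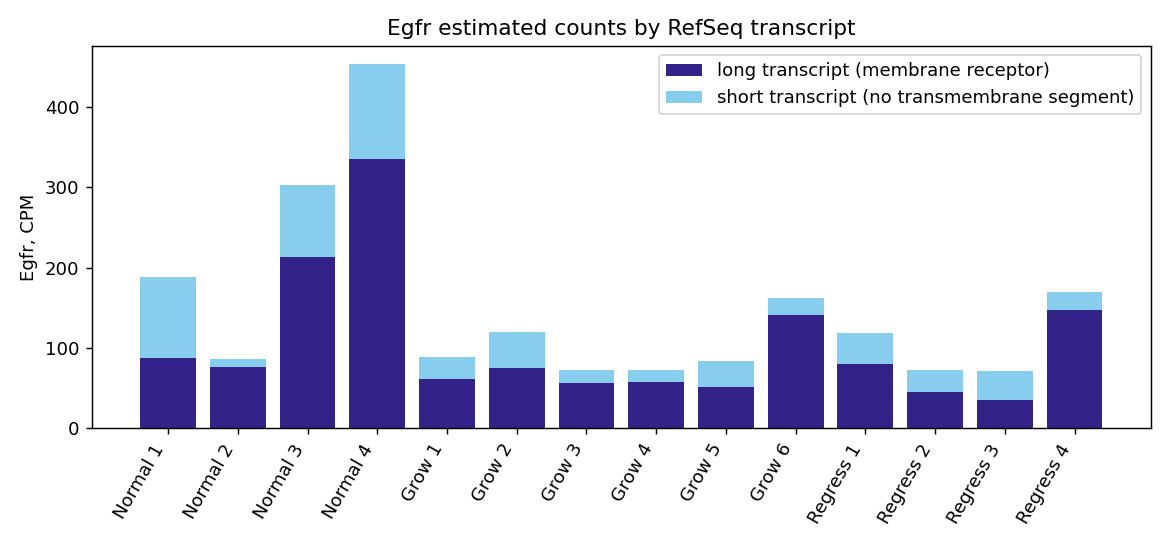
Stacked bars of Egfr CPM in each of the 14 libraries, split into the long transcript (dark) and the short transcript (light). Normal 1, 3 and 4 stand above every tumour in total, and the short part is smallest in Normal 2, at 10.1 CPM.

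Erbb3 and Erbb2 make up the pair that binds neuregulins: ERBB3 binds the ligand and has little kinase activity, ERBB2 has the kinase and no ligand. Erbb3 was at 41.9, 34.2, 90.4 and 75.1 CPM in Normal 1 to 4. In Grow it ranged from 26.8 to 149 CPM with a median of 48.7, and in Regress 1 to 4 it was 47.9, 36.0, 27.3 and 66.7 CPM. In Grow, 2 tumours lay above all normal livers and 3 below them, so the groups overlapped in both directions. The log2 fold change was -0.13 ± 0.46 for all tumours (95% interval -1.11 to 0.85) and 0.17 ± 0.50 for Grow, where its sign turned with the length trend removed (-0.05). Erbb2 was close to the limit of detection, with 2 to 13 counts a library, and did not pass the count filter. It was at 0.53, 0.53, 1.20 and 0.29 CPM in Normal, 0.66 to 1.86 CPM in Grow and 1.18, 0.79, 3.35 and 0.99 CPM in Regress. Fitted without the filter among 20753 features, its log2 fold change for all tumours was 1.00 ± 0.56 with an edgeR adjusted p of 0.445. Erbb4, the fourth receptor of the family, had no count in any Normal or Grow library.

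Met, the receptor for hepatocyte growth factor, was at 73.0, 56.6, 113 and 84.1 CPM in Normal 1 to 4. Its lowest, median and highest levels in Grow were 50.9, 63.0 and 97.5 CPM, and in Regress 1 to 4 it was 74.5, 31.6, 37.1 and 59.1 CPM. Only Normal 3 exceeded all tumours, and 4 tumours lay below all normal livers. It had the smallest spread within groups of the receptors tested, a pooled SD of 0.44 in log2 CPM. Its log2 fold change was -0.48 ± 0.26 for all tumours (95% interval -1.03 to 0.08, edgeR adjusted p = 0.374), -0.26 ± 0.29 for Grow and -0.69 ± 0.32 for Regress. With the length trend removed, mean log2 CPM of Met was 6.31 in Normal, 5.87 in Grow and 5.88 in Regress.

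Fgfr4 and Klb, receptor and co-receptor, both had their lowest mean CPM in Regress, as did Erbb3, Met and Insr. With the length trend removed, mean log2 CPM stayed lowest in Regress for Fgfr4 (4.63), Klb (3.79) and Insr (6.38 against 6.43 in Normal). It was then lowest in Grow for Erbb3 (5.59 against 5.66 in Regress) and Met (5.87 against 5.88). Fgfr4 was at 46.9, 38.4, 76.7 and 49.5 CPM in Normal 1 to 4, between 27.1 and 68.4 CPM in Grow with a median of 40.9, and at 24.2, 17.0, 15.7 and 46.3 CPM in Regress 1 to 4. Regress 1, 2 and 3 were below every Normal and Grow sample, and Regress 4 was inside both ranges. Klb was at 26.3, 15.9, 41.7 and 36.2 CPM in Normal 1 to 4, between 11.1 and 31.0 CPM in Grow with a median of 14.7, and at 12.4, 12.3, 14.4 and 12.1 CPM in Regress 1 to 4. All 4 Regress tumours were below all normal livers for Klb, and their spread was small, 12.8 ± 1.08 CPM against 30.0 ± 11.3 in Normal. Klb was the only one of the 7 tested receptors whose Regress and Normal values did not overlap, where 3.2% of all tested features lay wholly lower.

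The Klb log2 fold change was -0.99 ± 0.29 for all tumours (95% interval -1.61 to -0.37, edgeR adjusted p = 0.0790), -0.76 ± 0.32 for Grow (adjusted p = 0.243) and -1.23 ± 0.36 for Regress (adjusted p = 0.114). With the length trend removed it passed in all tumours (-1.01 ± 0.26, edgeR adjusted p = 0.0378), a call kept in 6 of 14 fits with 1 library left out (-1.20 to -0.87). It was lost without Normal 1, 3 or 4, Grow 1 or 6, or Regress 2, 3 or 4. It also passed in all tumours when Grow 2 was left out of the fit without that correction (-1.11, adjusted p = 0.0411). DESeq2 called Klb in all tumours (adjusted p = 0.0327) and in Regress (adjusted p = 0.0401, where it called 5.79% of features). For Fgfr4 the log2 fold change was -0.66 ± 0.32 for all tumours (edgeR adjusted p = 0.295), -0.28 ± 0.35 for Grow and -1.03 ± 0.39 for Regress (adjusted p = 0.206). Regress against Grow gave -0.74 ± 0.36 for Fgfr4 (95% interval -1.51 to 0.03, edgeR adjusted p = 0.491). Without Regress 4, the Regress library with the one positive length slope, that value was -1.19 with an adjusted p of 0.0450, in a fit that called 1249 features where the full fit called 0. For Klb the same comparison gave -0.48 ± 0.33 (95% interval -1.19 to 0.24).

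Insr and Igf1r, the receptors for insulin and for insulin-like growth factor 1, did not separate the groups. Insr was at 52.7, 51.5, 196 and 112 CPM in Normal 1 to 4, between 51.5 and 206 CPM in Grow with a median of 141, and at 46.9, 56.5, 44.3 and 143 CPM in Regress 1 to 4. Its values ran from 44.3 to 206 CPM over all libraries, and each group held high and low libraries. The log2 fold change was -0.11 ± 0.46 for all tumours (95% interval -1.09 to 0.87), 0.28 ± 0.50 for Grow, -0.50 ± 0.55 for Regress and -0.78 ± 0.51 for Regress against Grow. With the length trend removed, the all-tumour value was 0.02, on the other side of 0. Igf1r was sparse, with 1 to 35 counts a library, at 1.40, 0.53, 3.59 and 1.60 CPM in Normal, 0.46 to 2.49 CPM in Grow and 1.38, 0.20, 0.77 and 4.94 CPM in Regress. Its all-tumour log2 fold change was -0.11 ± 0.64 (95% interval -1.48 to 1.27).

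**Figure D2:**
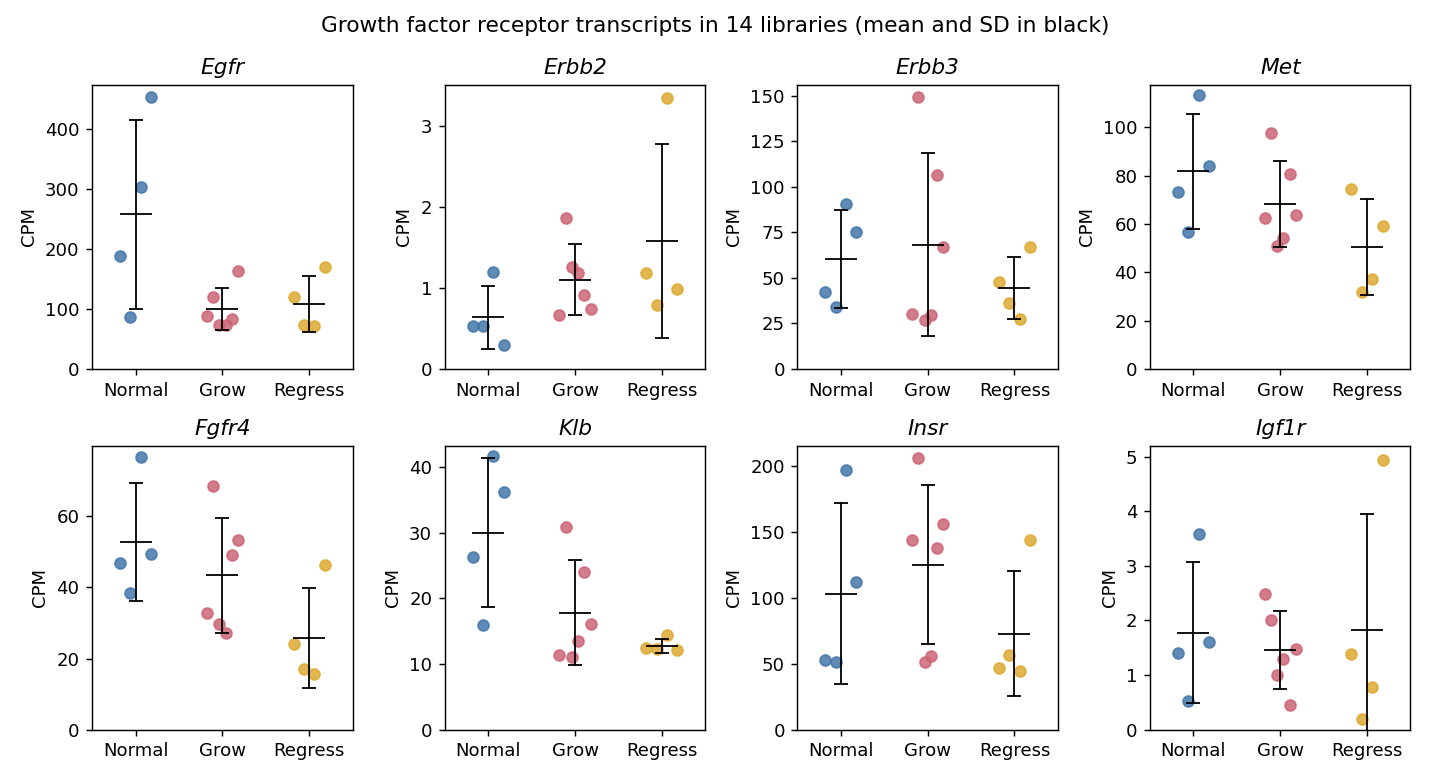
CPM of the 8 receptor genes, one panel each with its own linear axis from 0; points are libraries and black bars the mean and SD of Normal (n = 4), Grow (n = 6) and Regress (n = 4), cut at 0 for Igf1r. Egfr is above all tumours in 3 normal livers, the 4 Regress points of Klb lie between 12.1 and 14.4 CPM, and Erbb2 and Igf1r stay under 5 CPM in every library.

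Across the receptors as a group, 0 of 7 tested passed in any of the 6 comparisons. Among all tested features, 2.32% passed in all tumours against Normal, 1.76% in Grow against Normal and 0.0244% in Regress against Normal. None passed in the other 3 comparisons. At an unadjusted p under 0.05, edgeR gave 2 of 7 receptors in all tumours against Normal (Egfr and Klb), where 18% of all features passed, or 8.01% counting lower ones. It gave the same 2 receptors in Grow (7.09% of all features were lower) and 4 in Regress (Egfr, Klb, Fgfr4 and Met, where 6.6% of all features were lower). No receptor had an unadjusted p under 0.05 in Regress against Grow, where 10% of features did. The median log2 fold change of the 7 was -0.48 in all tumours against 0.01 over all tested features, -0.28 against -0.00 in Grow, and -0.69 against 0.03 in Regress. All 7 were negative in all tumours, Erbb3 and Insr were positive in Grow and Igf1r in Regress. These values carry the length slope, which was -0.36, -0.39, -0.48 and 0.39 in Regress 1 to 4. With the length trend removed, mean log2 CPM was lower in Grow than in Regress for Egfr, Erbb3, Met and Igf1r. It was lower in Regress than in Grow for Fgfr4 (4.63 against 5.29), Klb (3.79 against 3.99) and Insr (6.38 against 6.57).

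**Figure D3:**
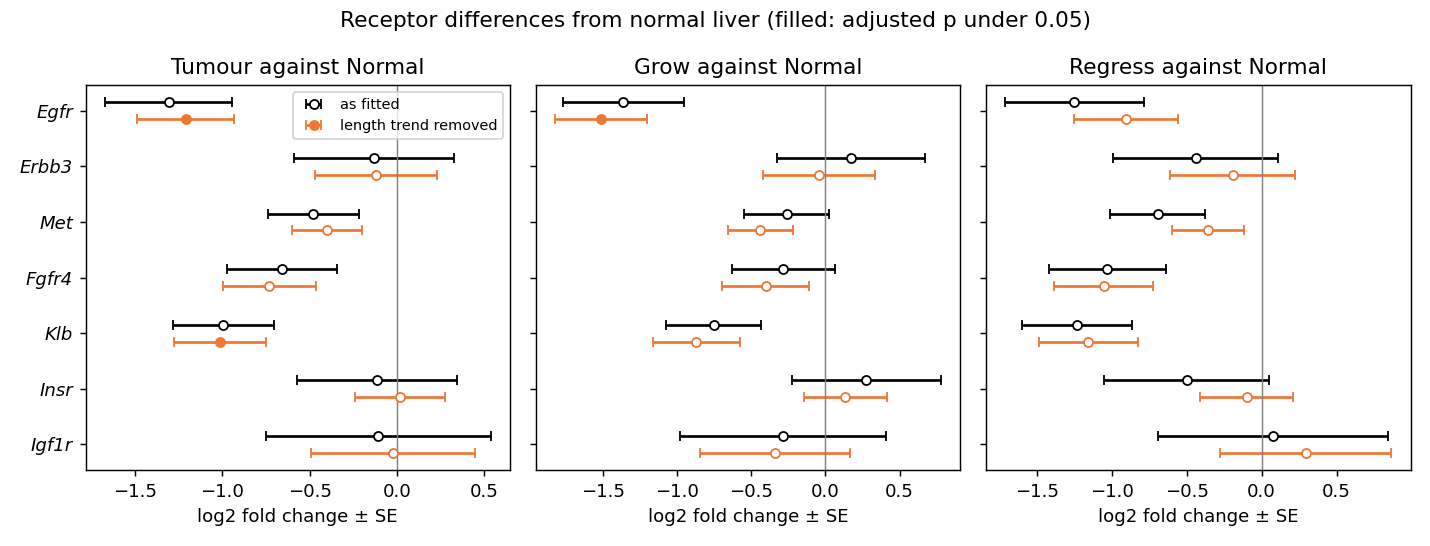
Log2 fold change ± SE of the 7 tested receptors for all tumours, Grow and Regress against Normal, from the fit as run (black) and with each library's length trend removed (orange); filled points passed at an adjusted p under 0.05. Only Egfr (all tumours and Grow) and Klb (all tumours) are filled, both after the length trend was removed, at log2 fold changes from -1.52 to -1.01.

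The spread within groups moved with the length slope of the library. The library with the most positive slope in its group, Normal 3, Grow 2 or Regress 4, was also the highest of its group for 7, 6 and 5 of the 8 receptors. By the definition of the slope, long transcripts tend to be high in such a library. The share of all features that were highest there was not counted, so these counts are not shown to be particular to the receptors. Normal 3 was the exception for Egfr, where Normal 4 was higher. Klb in Regress went the other way, with Regress 4 the lowest at 12.1 CPM. Insr showed the pattern most fully: the 7 libraries with a positive slope held its 7 highest levels. Removing the trend cut the pooled within-group SD in log2 CPM from 0.85 to 0.45 for Insr, from 0.69 to 0.50 for Egfr and from 0.85 to 0.64 for Erbb3. For Klb the SD was 0.52 before and 0.48 after, and for Fgfr4 0.56 and 0.48. After removal, Egfr was at 220, 108, 205 and 437 CPM in Normal 1 to 4 and between 64.9 and 158 CPM in the tumours, so 3 normal livers still stood above all tumours. The removal used a single length for Egfr, 8125 bases, averaged over its transcripts by count. The shares of those transcripts differed between libraries, which a single length does not take into account. Whether the slope comes from RNA quality, library preparation or the tissue was not tested.

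**Figure D4:**
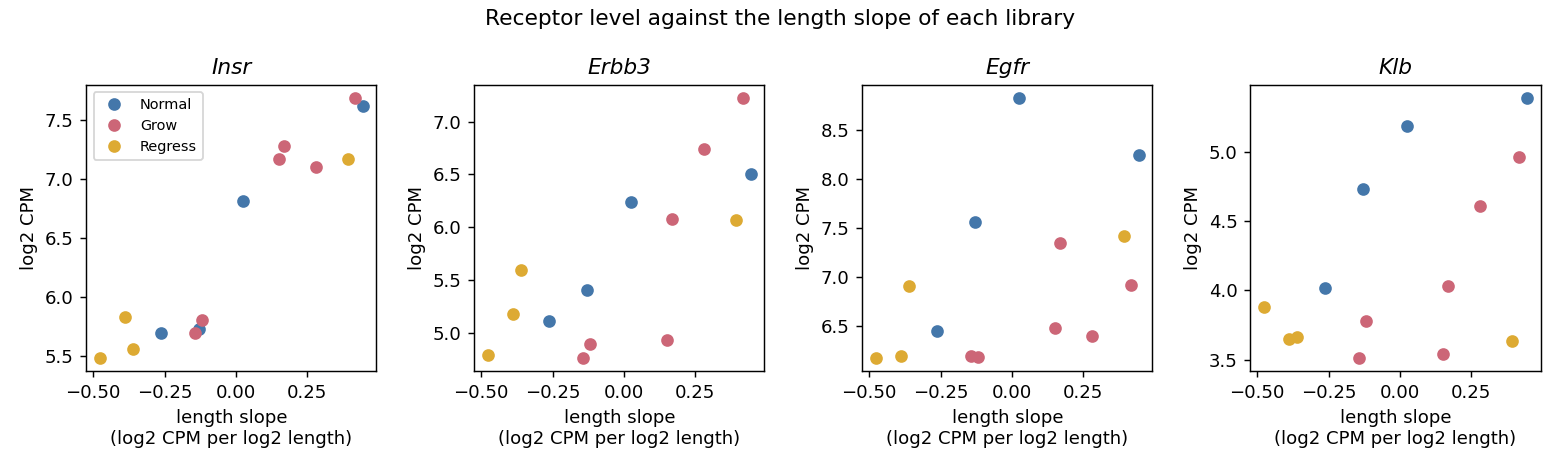
Log2 CPM of Insr, Erbb3, Egfr and Klb (one panel each) against the length slope of each of the 14 libraries, coloured by group. Insr is high in the 7 libraries with a slope above 0 and low in the others, while in the Egfr panel 3 of 4 Normal points lie above the tumours at any slope.

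The treatments gave no called receptor, with wide intervals. For TMZ, tested beside the group with 5 treated and 5 untreated tumours, the log2 fold changes ran from -0.74 ± 0.47 for Insr (95% interval -1.75 to 0.27) to 0.12 ± 0.33 for Klb. Egfr gave -0.34 ± 0.41, Fgfr4 -0.33 ± 0.35 and Met 0.10 ± 0.29. Unadjusted p was under 0.05 for none of the 7, against 13.9% of all features. For SAHA in Grow (4 treated, 2 DMSO), values ran from -0.26 ± 0.68 for Insr to 0.31 ± 0.58 for Egfr (95% interval -0.94 to 1.55), and again none of the 7 was under 0.05, against 2.64% of all features. Of the 4 SAHA tumours, 3 also had TMZ. Erbb2, fitted without the count filter, gave 1.05 ± 0.52 for TMZ (edgeR adjusted p = 0.457). Its CPM was higher in all 5 TMZ tumours than in the 5 others, as for 0.78% of the filtered features, on counts of at most 13.

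To compare genes, levels were set per kilobase of transcript, which leaves the length slope of each library in place. Orders of genes of unlike length may carry that slope, which was not tested. Egfr had the highest mean in every group when its 2 transcripts were added, each over its own length. That place rests on the estimated split, since the short transcript weighs more per count. The long receptor transcript alone was at 17.5 ± 11.9 CPM per kilobase in Normal, 7.23 ± 3.33 in Grow and 7.53 ± 4.97 in Regress. On that measure the mean of Egfr was below those of Insr, Fgfr4, Erbb3 and Met in Grow and below those of Insr and Fgfr4 in Regress. With both transcripts, in Normal the order of mean CPM per kilobase was Egfr at 44.5 ± 25.8 (SD, n = 4), Fgfr4 at 15.9 ± 4.98, Met at 12 ± 3.51, Insr at 11 ± 7.31, Erbb3 at 10.0 ± 4.44, Klb at 8.49 ± 3.21, Igf1r at 0.156 ± 0.109 and Erbb2 at 0.134 ± 0.0712. Egfr was above Fgfr4 in 3 of 4 normal livers, Fgfr4 above Met in 4, and Klb above Igf1r in 4. Insr and Erbb3 did not differ beyond their spread, with Insr above Erbb3 in 1 of 4. In Grow, Egfr (16.1 ± 5.04) was above Insr (13.4 ± 6.46) in 6 of 6 tumours, and Insr, Fgfr4, Erbb3 and Met were not separated. Klb was sixth at 5.03 ± 2.26, below Met in 6 of 6. In Regress, Egfr (18.2 ± 4.08) was above Insr (7.78 ± 5.07) in 4 of 4, and Insr, Fgfr4, Met and Erbb3 lay within 7.39 to 7.78. Klb (3.62 ± 0.32) was below Erbb3 in 4 of 4 Regress tumours. Erbb2 and Igf1r were last in each group, with their order turned between Normal and the tumours on very few counts.

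Among each other, Met and Fgfr4 had the most similar profiles over the 14 samples, with a mean absolute difference of 0.26 in centred log2 CPM. Among 10708 other genes, the nearest to Egfr was Tfr2, the transferrin receptor of hepatocytes, at 0.32, followed by Wdtc1 and Ddi2. Nearest to Klb were Klkb1, which encodes plasma prekallikrein, at 0.14, and then Aldh1l1 and Abat, enzymes of folate and GABA metabolism. For Met it was Hipk3 at 0.13, for Fgfr4 Phactr4 at 0.16, for Insr Myo18a at 0.14 and for Erbb3 Khnyn at 0.24. Igf1r was nearest to Cpsf1 at 0.33. The median distance over all candidates was 0.78 for Egfr and 0.67 for Klb. These likenesses share libraries, depth and the length slope, and carry no test.

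Of the ligands of the EGF receptor family, 5 of 11 passed the count filter and 1 was called in all tumours. Nrg1, a neuregulin that binds ERBB3, rose in all tumours (3.90 ± 0.89, edgeR adjusted p = 0.0396). It averaged 0.28 ± 0.25 CPM in Normal, 5.44 ± 2.97 in Grow and 3.56 ± 3.36 in Regress. It rose in Grow as well (4.2 ± 0.92, adjusted p = 0.0384), where all 6 tumours, from 2.00 CPM up, were above the normal livers, which reached 0.53. Values did not overlap in the upward direction for 5.27% of features in Grow. Betacellulin (Btc) was at 4.08 ± 2.13 CPM in Normal and 10.3 ± 4.29 in the 10 tumours (log2 fold change 1.37 ± 0.38, edgeR adjusted p = 0.0665). Hbegf gave 1.45 ± 0.58, Tgfa 0.61 ± 0.44 and Nrg4 0.06 ± 0.67, none called. The list median was 1.37 against 0.01 over all features. Egf and Areg were below the filter, with Areg at 0 in every normal liver.

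For MET, 9 of 10 genes of ligand and activating proteases were tested, and none was called in all tumours. Hgf, the MET ligand, which stellate cells are known to make, fell in Grow, from 7.19 ± 2.47 to 2.49 ± 0.90 CPM (log2 fold change -1.53 ± 0.35, edgeR adjusted p = 0.0424). All 6 Grow tumours, at most 4.02 CPM, lay below all normal livers, at least 4.18 CPM, as 4.28% of features did. Hgf averaged 4.97 ± 2.34 CPM in Regress. The summed level of 10 stellate and fibroblast markers was also lower in Grow, 67.8 to 131 CPM against 181 to 353 in Normal, and 142 to 1052 in Regress. The median log2 fold change over the 10 markers had the other sign in Grow (0.61) and was 1.57 in all tumours. Of those 10 markers, none was at 0 in a whole group, 1 (Dcn) was called lower in Grow and 1 (Tagln) higher in all tumours. The part of stellate cells in the Hgf result was not tested, and in bulk RNA fewer cells of a type and less RNA per cell cannot be told apart.

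Of the FGF ligands, 2 of 7 were tested. Fgf21, a hepatocyte hormone that acts through beta-Klotho, rose in all tumours (2.42 ± 0.53, edgeR adjusted p = 0.0348) and in Grow (2.80 ± 0.56, adjusted p = 0.0287). It was at 2.38 ± 0.85 CPM in Normal, 16.7 ± 12 in Grow and 9.87 ± 1.45 in Regress. Every tumour, from 3.54 CPM up, exceeded every normal liver, at most 3.35 CPM. Such a gap, in the upward direction, held for 1.09% of features. The other tested ligand, Fgf1, went the other way without passing, at 81.3 ± 14.3 CPM in Normal and 39.6 ± 16.2 in the tumours (-1.09 ± 0.30, edgeR adjusted p = 0.0703). Every tumour was below every normal liver for Fgf1, as for 0.935% of features. Fgf15, the ligand of FGFR4 from the gut, was below the filter. Of 6 bile acid genes listed beside FGFR4 and KLB, 1 fell in all tumours and 2 in Grow, with a median of -1.25 in all tumours. Whether these genes answer to FGFR4 in this tissue was not tested. Slc10a1, the sodium-dependent bile acid importer, fell in all tumours (-1.66 ± 0.37, edgeR adjusted p = 0.0369) and in Grow (-1.76 ± 0.42, adjusted p = 0.0488). Its means were 604 ± 287 CPM in Normal, 178 ± 84.5 in Grow and 206 ± 91.6 in Regress. Nr1h4, the bile acid receptor FXR, fell in Grow from 95.2 ± 21.7 to 40.1 ± 5.16 CPM (-1.25 ± 0.29, edgeR adjusted p = 0.0467). Cyp7a1, the rate-limiting enzyme of bile acid synthesis, gave -2.38 ± 1.27 with an adjusted p of 0.364, on levels from 0 to 549 CPM.

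Of the insulin-like ligands and their binding proteins, 10 of 12 were tested, 1 called higher and 1 lower in all tumours. Igfbp1, a secreted IGF-binding protein that insulin represses, rose in all tumours (5.12 ± 1.04, edgeR adjusted p = 0.0290) and in Grow (4.85 ± 1.05, adjusted p = 0.0367). Its means were 13.9 ± 11.5 CPM in Normal, 399 ± 389 in Grow and 582 ± 552 in Regress. Igfals, which holds IGF in a ternary complex in blood, fell in all tumours (-2.25 ± 0.55, edgeR adjusted p = 0.0465). It was at 145 ± 11.3 CPM in Normal, 35.6 ± 22.6 in Grow and 26.0 ± 25.0 in Regress. Neither tumour group passed alone (Grow -2.03 ± 0.62, edgeR adjusted p = 0.0992, Regress -2.48 ± 0.73, adjusted p = 0.112). Neither gene overlapped between normal livers and tumours, as for 1.09% of features higher and 0.935% lower. Igf1 was at 645 ± 107 CPM in Normal and 250.1 ± 124 in the 10 tumours, every one of which was lower. Its log2 fold change of -1.36 ± 0.39 did not pass (edgeR adjusted p = 0.0761). Igf2 gave 1.90 ± 0.87, on a level of 0.36 ± 0.15 CPM in Normal. None of 11 insulin response genes was called, with a median of -0.60.

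Inside the cell, 1 of 23 tested adaptors was called in all tumours and 2 in Grow. Shc2, an SH2-domain adaptor best known from neurons, rose in all tumours (6.72 ± 1.26, edgeR adjusted p = 0.0247) and in Grow (6.71 ± 1.28, adjusted p = 0.0287). Its means were 0.13 ± 0.17 CPM in Normal, 14.7 ± 8.15 in Grow and 14.8 ± 11.1 in Regress. Regress was uneven, with 1 library at 0. Nck2, which links receptors to the actin skeleton, rose in Grow from 2.43 ± 0.57 to 9.64 ± 3.17 CPM (1.99 ± 0.47, edgeR adjusted p = 0.0458). The central adaptors were not called: Gab1 gave -0.44 ± 0.36, Irs1 -0.04 ± 0.49 and Irs2 0.72 ± 0.54.

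None of 29 tested inhibitors and turnover genes was called. Errfi1, a feedback inhibitor of EGFR, was at 813 ± 151 CPM in Normal and 516 ± 197 in tumours (-0.72 ± 0.28, edgeR adjusted p = 0.186). Lrig1 gave -0.07 ± 0.36, Grb10 1.04 ± 0.67, Grb14 -0.09 ± 0.20, Socs2 -0.41 ± 0.69 and Socs3 -0.27 ± 0.34. None of 10 tested shedding proteases, of 6 tested other receptors of the same families or of 20 tested receptor tyrosine kinases of other liver cells was called in all tumours or in Grow. In the 4 comparisons without the Grow against Normal contrast, namely Regress with either other group and both treatments, no gene of any of these 11 lists was called.

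**Figure D5:**
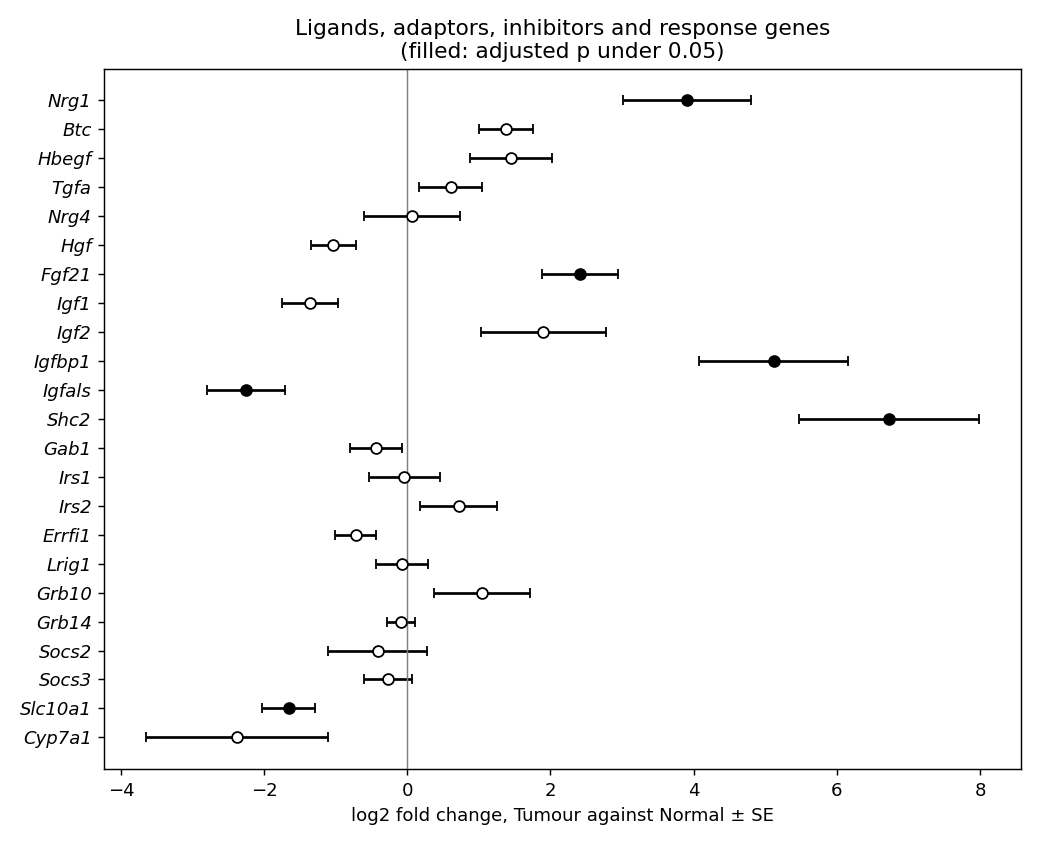
Log2 fold change ± SE in all tumours against Normal for 23 ligands, binding proteins, adaptors, inhibitors and bile acid genes listed beside the receptors. Filled points passed at an adjusted p under 0.05. Filled are 6, with Nrg1, Fgf21, Igfbp1 and Shc2 to the right of 0 and Igfals and Slc10a1 to the left.

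The pathway calls depended on single libraries. The direction held in all 14 fits with 1 library left out, which adds little, because these genes were picked for being called in the full data. For each called gene the edgeR adjusted p was above 0.05 when any 1 of the 4 normal livers was left out. Leaving out 1 tumour also ended most calls. Of the 14 fits, the all-tumour call was kept in 10 for Igfbp1 and for Shc2, in 9 for Fgf21, in 5 for Nrg1 and for Slc10a1 and in 3 for Igfals. For Fgf21 it was Regress 3 that mattered, and for Nrg1 and Slc10a1 it was Grow 1, 5 or 6 or Regress 2 or 3. For Igfals it was any tumour other than Grow 1, Grow 2 and Regress 1. The Grow call was kept in 9 fits for Fgf21 (lost without Grow 1) and in 7 for Nrg1, Igfbp1 and Shc2 (lost without Grow 1, 5 or 6). It was kept in 4 for Hgf and Nck2 (lost without any Grow tumour but Grow 2, or without Regress 3), in 3 for Slc10a1 (those and Regress 2) and in 2 for Nr1h4 (any Grow tumour, Regress 2 or Regress 3). With limma-voom, Igfbp1 alone among them stayed called. For Shc2 in all tumours the edgeR adjusted p ran from 0.00109 to 0.115 over those fits with a log2 fold change from 6.31 to 7.72, and for Igfals from 0.00849 to 0.140 with -2.70 to -2.09.

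The hepatocyte label of the receptors was set against cell type markers in the same libraries. The summed level of 11 measured hepatocyte markers was 74150 to 108126 CPM in Normal, 50505 to 270058 in Grow and 98223 to 204027 in Regress. Of these markers, 0 of 11 were called in any of the 6 comparisons. Grow 3 and Grow 4 were the low ones, at 50505 and 50672 CPM, and were also among the lowest for Egfr. The other tumours with low Egfr, such as Regress 2 (73.0 CPM) and Regress 3 (71.6 CPM), had hepatocyte sums of 201652 and 204027 CPM, above every normal liver. These sums are led by Alb, the albumin gene, at 112721 CPM in the tumours and 39560 in Normal. The median log2 fold change over the 11 markers had the other sign in all tumours (-0.21) and in Grow (-0.15). Cholangiocyte markers summed to 20.1 to 27.9 CPM in Normal, 34.7 to 637 in Grow and 30.3 to 569 in Regress. Of 6 tested, Tspan8 and Prom1 were called higher in all tumours against Normal, where 2.32% of all features passed. No cholangiocyte marker was called in Grow or in Regress alone against Normal. Their sum includes Spp1, which was also listed as a marker of recruited monocytes. Kupffer cell markers were at 413 to 1176 CPM in Normal, 112 to 571 in Grow and 324 to 983 in Regress, none called of 10. None of the hepatocyte, cholangiocyte or Kupffer cell markers measured was at 0 in a whole group. The part of cell composition in the receptor values was not tested.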

How the data were processed

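RNA of snap-frozen tissue was made into unstranded TruSeq RNA v2 libraries, per the labels' protocols, so reads of antisense genes cannot be told apart. The deposited values are estimated counts for 35230 RefSeq rows (1 further column holds no values), made by the authors with Salmon 0.3.1, edgeR 3.14.0 and mm9 named in the submitters' processing notes. Rows were joined to symbols by RefSeq accession (26081 rows, GRCm38.p6) or GENCODE M21 (144 more). The 9005 unmatched rows, 3.52% to 12.1% of counts, stayed as features. Rows of 1 gene were added up and the sums rounded.

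Samples were grouped by title. All 14 entered 1 fit of 3 groups in edgeR 4.0.16 (R 4.3.3, limma 3.58.1) with TMM, filterByExpr and robust quasi-likelihood tests. TMZ was a coefficient beside the group, and SAHA a contrast in a 4-group fit. Length trends were removed as offsets from a lowess curve (span 0.3) per library over features with a known length. DESeq2 1.42.0, limma-voom and the other alternatives are in the closing section. In simulated counts for Grow against Normal (12113 genes) a log2 change of 1 was called in 9.23% of genes, of 2 in 64.2% and of 4 in 92.3%, with 6.03% of calls false. For Regress against Normal (12111 genes) the shares were 4.55%, 62.7% and 100%, with 1.77% false. The simulated libraries were independent, with 1 mean level per gene and no group difference other than the added changes. They held no length slope, no near copies like Grow 3 and Grow 4 and no shared sample code. These shares may therefore not hold for the real libraries.

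The receptors, gene lists and tests were chosen with earlier results of these data known. Named genes are the 8 receptors, up to 4 called genes per list and a fixed set of ligands, adaptors and inhibitors. Fgf1 and Alb were added after their values were seen. Likeness was measured to genes whose log2 CPM averaged 1 or more, with no test.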

Additional observations from a re-analysis of the deposited data

Results flagged for a closer look

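Of 24 groups of 4 or 6 values checked (8 receptors in 3 groups), 1 held a value far from the others by its gap relative to the range: Klb in Regress 3, at 14.42 CPM, against 12.13 to 12.41 CPM in the other 3 Regress tumours. Chance marks about 1 in 20 such groups, and the whole Regress range of Klb is narrow. Regress 3 still lay below every normal liver.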

How the results depend on the processing

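Of 912 recomputed receptor values, 840 kept their direction and side of the threshold, 9 came to pass it, and 63 changed sign, 34 of them with 1 library left out. All 24 receptor levels moved by less than 1 SD with relative log expression (RLE) size factors. Called features under each alternative follow, in the order all tumours, Grow and Regress against Normal, with 285, 217 and 3 as run. DESeq2 called 1055, 1014 and 712 (receptors 2, 1 and 1), and 31 in Regress against Grow, 464 for TMZ and 52 for SAHA, where edgeR called 0. With the length trend removed the counts were 696, 562 and 165 (receptors 2, 1 and 0), with 85 for TMZ. limma-voom called 127, 93 and 0, with 2 for TMZ. No filter gave 1 for TMZ. RLE gave 35 in Regress. Grow 3 and 4 summed as 1 sample gave 113 in Grow and 0 in Regress. Without Normal 4 and Regress 2, the samples that share a code, the counts were 0, 18 and 0. With 1 library left out, called features ranged from 0 to 991, 4 to 651 and 0 to 667, from 0 to 1249 in Regress against Grow and 0 to 737 for TMZ, with 0 throughout for SAHA. Called receptors then ranged from 0 to 1 in all tumours and in Regress against Grow, and were 0 in the other comparisons. The causes were not tested.

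The replicate numbers do not pair the samples: deviations of the 12 same-numbered pairs correlated at -0.52 to 0.20, and 2 were over 0.1. With a replicate block 0 features and 0 receptors were called in every comparison.

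Values that changed sign in fits other than those with 1 library left out were, in all tumours, Nrg4 (-0.34 with voom, -0.0094 without the length trend, -0.44 with the replicate block, -0.0012 without the shared-code pair), Lrig1 (0.0027 with voom), Socs2 (0.16 with voom, 0.32 with the block), Insr (0.0172) and Irs1 (0.0125) without the length trend, and Erbb3 (0.0298), Igf1r (0.0189) and Grb14 (0.0048) without the shared-code pair. In Grow they were Erbb3 (-0.013 with voom, -0.0461 without the length trend, -0.33 with the block) and Igf1r (0.17 with the block). Igf1r in Regress gave -0.23 with voom and -0.19 with the block, and in Regress against Grow -0.0402 and -0.36. Met in Regress against Grow gave 0.0813 without the length trend. For TMZ, Egfr gave 0.0827, Erbb3 0.0665 and Igf1r 0.0752 without the length trend, Erbb3 0.30 with the block and 0.0138 with Grow 3 and 4 summed, and Met -0.0452 without the shared-code pair. For SAHA, Erbb3 gave 0.0138 with RLE and DESeq2, 0.0455 without the length trend, 0.73 with the block and 0.25 with Grow 3 and 4 summed. Met for SAHA gave 0.0574 without the length trend and 0.48 with the block, Klb -0.0026 with voom, and Igf1r 0.10 with voom, 0.17 without the length trend and 0.0261 with Grow 3 and 4 summed.

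With 1 library left out, the signs of these values turned, given as lowest to highest. In all tumours they were Erbb3 (-0.33 to 0.13), Insr (-0.40 to 0.40), Igf1r (-0.73 to 0.48), Nrg4 (-0.39 to 0.33), Irs1 (-0.52 to 0.36), Lrig1 (-0.28 to 0.39), Grb14 (-0.17 to 0.0078), Socs2 (-0.81 to 1.20) and Socs3 (-0.46 to 0). In Grow they were Erbb3 (-0.22 to 0.43) and Igf1r (-0.59 to 0.30), in Regress Insr (-1.07 to 0.0121) and Igf1r (-1.18 to 0.65), and in Regress against Grow Egfr (-0.19 to 0.31) and Igf1r (-0.89 to 0.72). For TMZ they were Erbb3 (-0.90 to 0.0591), Met (-0.11 to 0.21), Klb (-0.21 to 0.30) and Igf1r (-0.82 to 0.35). For SAHA they were Erbb3 (-0.74 to 1.17), Met (-0.35 to 0.0919), Fgfr4 (-0.16 to 0.45), Klb (-0.39 to 0.65) and Igf1r (-0.78 to 0.0791). Igf1r passed the count filter in 12 of these 14 fits. The fits that combine length removal with a left-out library were added after the data were seen. Erbb2, at 2 to 13 counts, and Igf1r, at 1 to 35, are limited by depth.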
